A study of Mus musculus with 16 samples.

Results

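Nuclear-encoded genes of the mitochondrial respiratory chain were followed in the hippocampus of mice that carried a human tau transgene, lacked the gene Ch25h, or both. They were taken by name, as the protein-coding rows whose symbol begins with Nduf followed by a, b, c, s or v, with Uqcr, with Cox followed by a digit of 4 to 8, or with Atp5, plus Sdha, Sdhb, Sdhc and Sdhd. This gave 96 of 55487 genes, under 95 symbols, because Atp5o stands under 2 identifiers. A filter on low counts left 94 of these genes among the 18565 tested. The other two were Cox8c, a testis isoform listed at 0 TPM in all 16 libraries, and the second Atp5o row, which held no reads.

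The respiratory chain lies in the inner mitochondrial membrane. Complexes I and II feed electrons from NADH and succinate to coenzyme Q, complex III hands them to cytochrome c, and complex IV passes them to oxygen, while complexes I, III and IV pump protons that drive ATP synthase. Most subunits are encoded in the nucleus and imported, and a small set that includes the core of the proton pumps is encoded by mitochondrial DNA. Neurons depend strongly on this route for ATP. The name rule also takes 8 complex I assembly factors (Ndufaf1 to Ndufaf8), the supercomplex factor Cox7a2l and Cox5b-ps. Both Cox5b-ps and Ndufb1-ps have a pseudogene name but are typed as protein-coding. Ndufb1-ps is counted here among the complex I accessory subunits, and shares 147 exon bases with Cpsf2 on the other strand.

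PS19 mice carry human 1N4R tau with the P301S mutation of frontotemporal dementia under the prion protein promoter, and were crossed with Ch25h knockout mice. Ch25h makes 25-hydroxycholesterol. The groups were TCKO (tau transgene, Ch25h knockout), T (tau transgene, Ch25h intact), CKO (Ch25h knockout alone) and WT (neither), with 4 libraries each, all from the right hippocampus of PBS-perfused female mice. The labels give an age of 40 weeks in one field and of 9.5 months in another,, and do not state whether the numbered replicates of a group were separate animals. The p-values thus refer to the scatter among libraries, which may be technical. The PrP promoter is not restricted to neurons, and the knockout was present in every cell, so no result can be tied to one cell type. In bulk tissue, fewer cells of a type and less RNA per cell cannot be told apart.

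Libraries held 15064309 to 34348284 reads. Ch25h had 0 to 1 reads in TCKO, 133 to 300 in T, 0 to 2 in CKO and 18 to 39.7 in WT libraries. The summed level of 12 microglial markers was 958 to 1805 CPM in TCKO, 3818 to 5061 in T, 766 to 870 in CKO and 700 to 994 in WT, where CPM is reads per 1e6 after TMM scaling. The summed level of 16 excitatory neuron markers was 10768 to 15233 CPM in TCKO, 6684 to 10947 in T, 13606 to 14902 in CKO and 11000 to 13293 in WT. Libraries T 4 and WT 1 stood apart by their choroid plexus markers, which summed to 11576 and 11569 CPM, against 160 to 1193 CPM in the other 14.

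The promoters of Uqcrc1, Ndufv1, Atp5b and Cox6b2 are shown because the first 3 genes are among the 4 members in which the effect of the tau transgene differed with Ch25h genotype, and the last is the only member that rose in T against WT. Sequences are from RefSeq on GRCm38.p6, 5′ to 3′ on the gene's strand, from 250 bases before to 50 after the annotated start. Capitals mark matches to NRF1 (GCGCANGCG), GABP (CCGGAAG) or YY1 (AAGATGGCG), searched on both strands; overlapping matches run together.
Uqcrc1 chr9:108936398-108936697, plus strand: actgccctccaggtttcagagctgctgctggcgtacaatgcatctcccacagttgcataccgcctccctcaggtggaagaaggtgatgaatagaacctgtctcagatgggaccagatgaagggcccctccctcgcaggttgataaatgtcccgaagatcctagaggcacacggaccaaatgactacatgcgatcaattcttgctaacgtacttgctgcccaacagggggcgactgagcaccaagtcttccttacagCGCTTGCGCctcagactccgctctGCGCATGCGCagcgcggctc
Ndufv1 chr19:4012706-4013005, minus strand: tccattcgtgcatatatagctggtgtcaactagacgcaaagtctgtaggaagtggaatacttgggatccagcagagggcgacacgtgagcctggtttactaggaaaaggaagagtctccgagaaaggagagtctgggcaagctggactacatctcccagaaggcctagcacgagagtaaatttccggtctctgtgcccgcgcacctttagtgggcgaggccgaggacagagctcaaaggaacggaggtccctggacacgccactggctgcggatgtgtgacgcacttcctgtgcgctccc
Atp5b chr10:128083057-128083356, plus strand: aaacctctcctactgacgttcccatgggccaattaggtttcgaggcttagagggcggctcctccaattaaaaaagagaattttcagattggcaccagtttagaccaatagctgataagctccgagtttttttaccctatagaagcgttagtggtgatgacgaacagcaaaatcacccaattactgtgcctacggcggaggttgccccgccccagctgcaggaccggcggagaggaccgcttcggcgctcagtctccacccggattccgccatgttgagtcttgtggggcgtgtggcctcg
Cox6b2 chr7:4753045-4753344, minus strand: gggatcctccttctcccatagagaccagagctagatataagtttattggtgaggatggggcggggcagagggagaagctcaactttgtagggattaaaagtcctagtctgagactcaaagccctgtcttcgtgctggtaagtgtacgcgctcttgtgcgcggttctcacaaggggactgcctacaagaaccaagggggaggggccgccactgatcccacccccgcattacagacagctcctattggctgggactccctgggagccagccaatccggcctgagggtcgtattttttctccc

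NRF1 and GABP are transcription factors known to bind promoters of respiratory chain genes, and YY1 is a broadly acting factor that binds near many start sites. Uqcrc1 held NRF1 matches at a pair of places just after its start, and the other 3 promoters shown held none of the motifs in this window. Of 77 members with a promoter entry, 22 (28.6%) held an NRF1 match, against 7.03% of 27025 genes with a promoter. A GABP match stood in 19 (24.7%) of the members and in 9.93% of all genes, and a YY1 match in 8 (10.4%) of the members and in 1.64% of all genes. Of the 40 members with an entry that fell in T against WT, 17 (42.5%) held an NRF1 match, 8 (20%) a GABP match and 3 (7.5%) a YY1 match. These 40 are part of the 77, and the share among all genes that fell is not given here. No link between a motif and the fall can thus be read from them. The matches are a description of these windows and not of binding.

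In WT hippocampus the members were abundant and even between libraries. TPM, which allows for transcript length, was highest for Cox4i1, the broadly expressed form of a complex IV subunit, at 2332 ± 181 TPM in TCKO, 2105 ± 77.5 in T, 2332 ± 22.7 in CKO and 2467 ± 61.2 in WT (SD, n = 4 each). Averaged over all 16 libraries, the most abundant members of the other complexes were Uqcrq, a small complex III subunit, at 1319 ± 67.7 TPM in WT, where Uqcr11, another small subunit, was at 1332 ± 81.8, Atp5md, a small ATP synthase subunit of the membrane part, at 1393 ± 155, Atp5b, the catalytic β subunit, at 1183 ± 75.8, and Ndufb8, a complex I accessory subunit, at 965 ± 24.5. Complex I core subunits were led by Ndufs7, which carries an iron-sulphur cluster close to the quinone site, at 541 ± 16.1 TPM in WT, and complex II by Sdhb, its iron-sulphur subunit, at 518 ± 30.9. The 85 members at 10 CPM or more on average had a median coefficient of variation of 5.90% over the WT libraries, against 10.2% for the 9531 genes tested at that level.

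Relative to the mean of the WT libraries, the median member was lower in each of the 3 other genotypes. On a log2(CPM + 0.5) scale the median over the 94 members was -0.22, -0.29, -0.22 and -0.20 in TCKO libraries 2, 3, 4 and 5. The medians of T libraries 2, 3, 4 and 5 were -0.22, -0.38, -0.18 and -0.25. CKO libraries 1, 2, 4 and 5 had medians of -0.19, -0.23, -0.03 and -0.26, and WT libraries 1, 2, 4 and 5 had 0.04, -0.07, -0.01 and 0.04. All TCKO and T libraries lay below all WT libraries, while CKO 4, the shallowest library, fell within the WT range. The median over all genes tested stayed between -0.03 and 0.03 in every library. As a share of all reads the members took 1.98 ± 0.07% in TCKO, 1.89 ± 0.08% in T, 2.06 ± 0.11% in CKO and 2.24 ± 0.11% in WT (SD, n = 4 each).

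**Figure D1:**
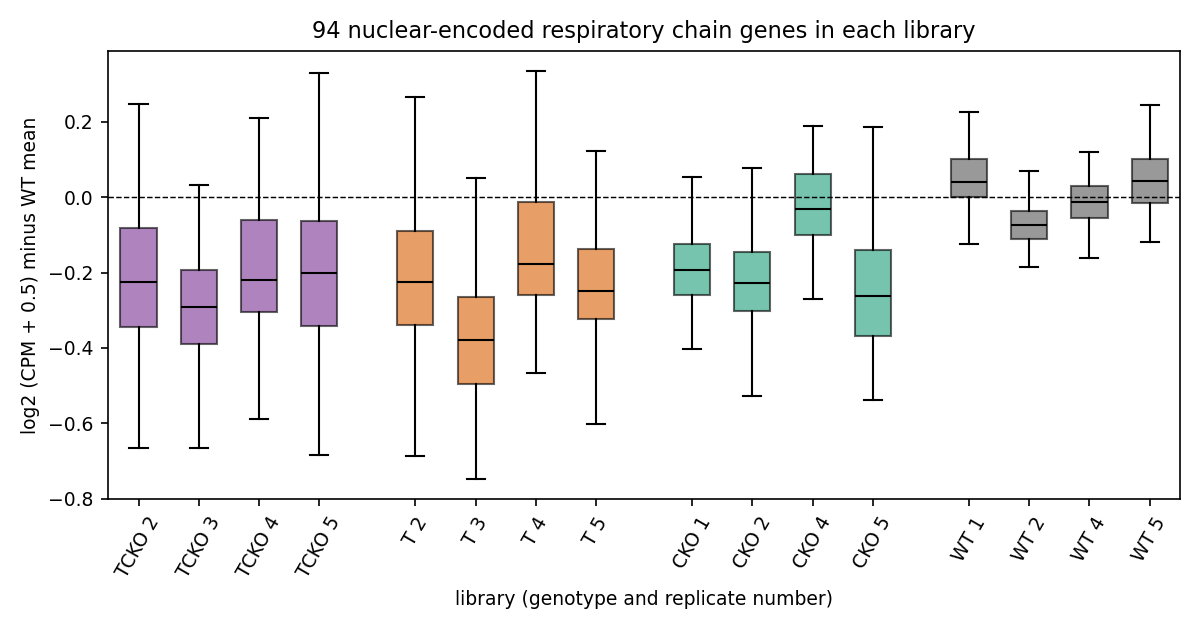
Box plots of log2(CPM + 0.5) minus the WT mean for the 94 members in each library, by genotype and replicate number. The centre line is the median, the box the quartiles, the whiskers reach at most 1.5 box lengths, and points beyond them are not drawn. Medians lie between -0.29 and -0.20 in TCKO, -0.38 and -0.18 in T, -0.26 and -0.03 in CKO, and -0.07 and 0.04 in WT libraries.

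The deposited TPM, which are not rescaled between libraries, gave more overlap between the groups. Summed over all members they came to 47311 ± 2199 in TCKO, 44246 ± 877 in T, 50766 ± 3018 in CKO and 51529 ± 2366 in WT (SD, n = 4 each). T libraries, at 43009 to 44906 TPM, lay below all WT libraries, at 49087 to 54233, whereas CKO libraries, at 48260 to 55124, spanned the WT range. TCKO libraries, at 45201 to 50076, lay between T and WT and overlapped WT through TCKO 4, which exceeded WT 2. That TCKO lay wholly below WT, and CKO mostly so, was seen in the scaled counts and not in the summed TPM. The share of all reads, which is not scaled by TMM, also showed it. That share was 1.91 to 2.05% in TCKO, 1.97 to 2.23% in CKO and 2.13 to 2.36% in WT libraries, with only CKO 4 of the CKO libraries in the WT range.

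T against WT asks what the transgene does when Ch25h is present. Of 94 members 47 were lower in T, 1 was higher and 46 did not pass the test (edgeR quasi-likelihood, Benjamini-Hochberg adjusted p under 0.05 over all genes tested), where 24.2% of all genes tested were called, 11.2% lower and 13% higher. The falls were shallow: the 47 ranged from -0.57 to -0.22 on the log2 scale, with a median of -0.32, a ratio of 0.802. The median of all 94 was -0.25, against -0.01 for all genes tested, and 82 lay below 0, as did 51.3% of all genes. Genes at 10 CPM or more were split at 493 bases of mean effective length in the deposited files. This split was chosen after the values were seen. The 43 shorter members had a median of -0.23 and the 42 longer ones -0.29. Over all genes at that level the split gave -0.06 for 325 genes and -0.09 for 9206. In 54 members every T library lay below every WT library, a pattern seen in 11.8% of all genes; in 2 members all T libraries lay above, against 13.3% of all genes. At an unadjusted p under 0.05, 62 members were lower and 3 higher, against 17.9% and 17.8% of all genes.

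**Figure D2:**
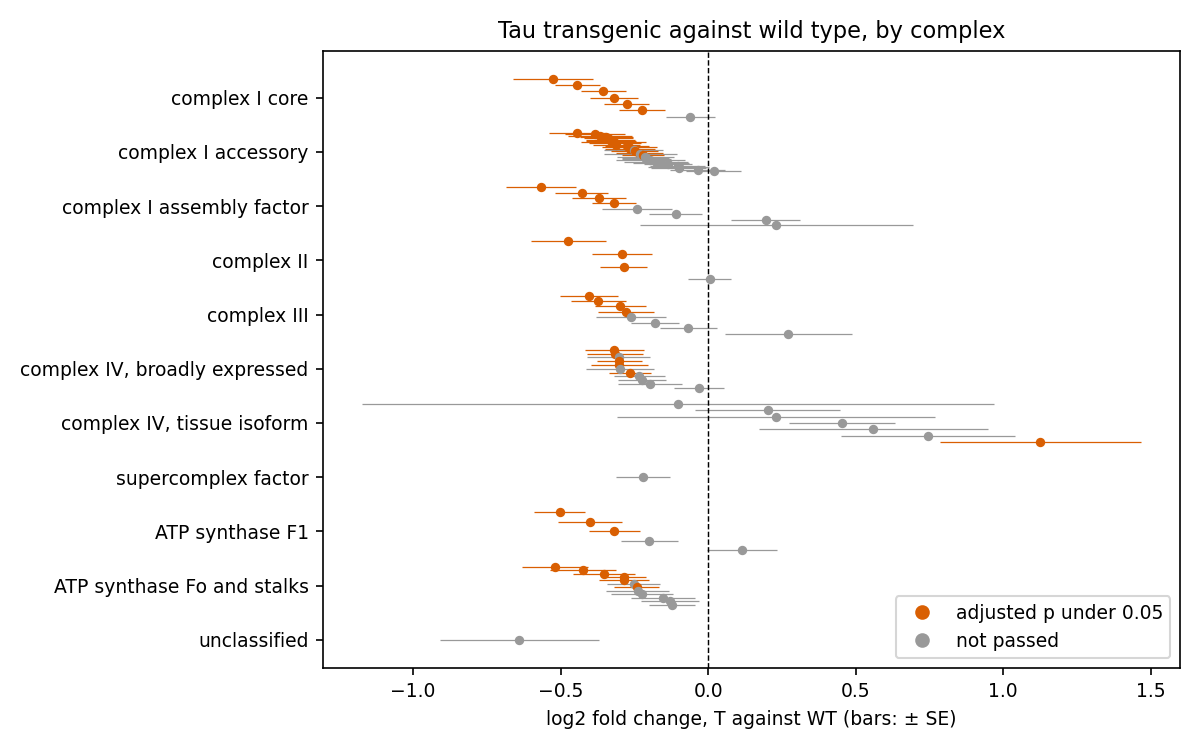
Log2 fold change of each tested member in T against WT by complex, with bars of ± 1 SE; coloured points passed at an adjusted p under 0.05. Most members of complexes I to IV and of ATP synthase lie left of 0, the called falls between -0.57 and -0.22, and the low-level complex IV tissue isoforms lie mostly right of it.

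Complex I takes electrons from NADH. Among its 7 core subunits 6 fell in T, as did 16 of 30 accessory subunits and 4 of 8 assembly factors. With the replicate number as a block 4 core subunits, 8 accessory subunits and 4 assembly factors fell. Ndufv1, the flavin subunit that accepts electrons from NADH (chr19:4007384-4012806, GRCm38), had 232, 242, 268 and 271 CPM in T and 354, 335, 330 and 357 CPM in WT libraries. The groups did not overlap, and the fold change was -0.44 ± 0.08 (log2, SE; adjusted p = 0.00057 by edgeR). Ndufs7 had 181, 181, 183 and 178 CPM in T and 233, 233, 229 and 230 CPM in WT libraries, without overlap, and fell by 0.35 ± 0.08 on the log2 scale (adjusted p = 0.0034). Ndufs1, the largest iron-sulphur subunit, fell by 0.52 ± 0.14 (adjusted p = 0.0099). Ndufs3 was the only core subunit that did not pass, at -0.06 ± 0.08 (adjusted p = 0.66); Ndufs1 and Ndufs3 were named after their values were seen.

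The accessory subunit Ndufa9 had 205, 208, 233 and 236 CPM in T and 326, 270, 282 and 322 CPM in WT libraries, and fell by 0.44 ± 0.10 (log2, SE; adjusted p = 0.0032). Ndufb8 fell by 0.23 ± 0.08, close to the threshold (adjusted p = 0.045), and lost its call with the block. Some accessory subunits have near-identical copies among which the counting could split reads: Ndufb4c held 71.6% of the reads of Ndufb4 and Ndufb4c together, and Ndufa12-ps 30.7% of the reads of its pair. Both copies fell as well, by 0.37 ± 0.10 (adjusted p = 0.011 by edgeR) and 0.30 ± 0.08 (adjusted p = 0.015). The levels of Ndufb4 and Ndufa12 are thus uncertain. Split reads would move parent and copy together, so nothing is drawn from their shared direction. Ndufb4 lost its call with the block, with no filter on low counts and with an offset for effective length. It also lost it without T 3 and without both T 4 and WT 1. In TPM its T libraries, at 106 to 113, overlapped its WT libraries, at 112 to 123.

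The assembly factors do not stay in the finished enzyme. Ndufaf5, which modifies Ndufs7 during assembly, had 26.2, 23.2, 23.0 and 29.2 CPM in T and 36.3, 31.9, 40.7 and 41.6 CPM in WT libraries, the deepest called fall of all members at -0.57 ± 0.12 (log2, SE; adjusted p = 0.0027). Ndufaf4, which acts with Ndufaf3 early in assembly, had 36.9, 43.3, 42.7 and 42.3 CPM in T and 57.6, 53.4, 57.8 and 53.6 CPM in WT libraries, and fell by 0.43 ± 0.09 (adjusted p = 0.0024). Ndufaf3 fell by 0.32 ± 0.07 (adjusted p = 0.0050). It shares 48 exon bases with Impdh2 on the other strand, a gene with about as many reads that also fell by 0.32 ± 0.08, and no source used here tells whether strand was counted. Ndufaf8, the most abundant of the factors by TPM, was at 0.19 ± 0.12 and did not pass (adjusted p = 0.25).

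Complex II, succinate dehydrogenase, also belongs to the citric acid cycle, and 3 of its 4 genes fell in T, of which Sdha alone kept its call with the replicate block. Sdha, the flavoprotein that oxidises succinate, had 456, 501, 573 and 638 CPM in T and 810, 724, 671 and 805 CPM in WT libraries, with a fold change of -0.47 ± 0.13 (log2, SE; adjusted p = 0.012). Sdhb fell by 0.29 ± 0.08 (adjusted p = 0.015) and the membrane anchor Sdhd by 0.29 ± 0.10 (adjusted p = 0.046). The other anchor, Sdhc, had 137, 136, 152 and 126 CPM in T and 141, 138, 140 and 131 CPM in WT libraries, overlapping groups with a fold change of 0.00 ± 0.07 (adjusted p = 0.98).

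Complex III had 4 of 8 members lower in T, and 3 with the replicate block. Uqcrc1, a large core protein facing the matrix, had 434, 426, 470 and 491 CPM in T and 574, 526, 515 and 624 CPM in WT libraries, and fell by 0.30 ± 0.09 (log2, SE; adjusted p = 0.019). Uqcrq fell by 0.28 ± 0.09 (adjusted p = 0.041) and lost its call with the block. Uqcrfs1, the Rieske iron-sulphur protein, was at 0.27 ± 0.22 and did not pass (adjusted p = 0.40); it is named after its value was seen.

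Broadly expressed complex IV genes fell in 5 of 11 cases, but in 1 of 11, Cox4i1, with the replicate block (adjusted p = 0.049 by edgeR). Cox4i1 had 945, 843, 916 and 938 CPM in T and 1088, 1059, 1104 and 1124 CPM in WT libraries, without overlap, and fell by 0.26 ± 0.07 (log2, SE; adjusted p = 0.013). The small subunit genes Cox6b1, Cox7a2, Cox7b and Cox7c, the last named after its value was seen, fell by 0.30 to 0.32 (adjusted p 0.0088 to 0.034). Cox6a1 at -0.22 ± 0.08, Cox8a at -0.20 ± 0.11 and Ndufa4, first described in complex I and now placed in complex IV, at -0.30 ± 0.11 did not pass (adjusted p 0.057, 0.21 and 0.050). The supercomplex factor Cox7a2l was at -0.22 ± 0.09 (adjusted p = 0.089) and Cox5b-ps at -0.64 ± 0.27 (adjusted p = 0.095).

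ATP synthase had 3 of 5 tested genes of its catalytic F1 head and 6 of 12 of its membrane part and stalks lower in T; with the replicate block these were 2 and 3. Atp5a1, the α subunit of the head (chr18:77773729-77782869), had 635, 681, 778 and 797 CPM in T and 1045, 1016, 945 and 1091 CPM in WT libraries, and fell by 0.50 ± 0.09 (log2, SE; adjusted p = 0.00058). Atp5b had 779, 760, 929 and 1034 CPM in T and 1135, 1122, 1123 and 1244 CPM in WT libraries, and fell by 0.40 ± 0.11 (adjusted p = 0.012). Neither gene's T libraries reached its WT libraries. Atp5k, subunit e at the interface of ATP synthase dimers, had 96.3, 89.6, 102 and 102 CPM in T and 146, 124, 134 and 155 CPM in WT libraries, and fell by 0.52 ± 0.11 (adjusted p = 0.0032). The 3 genes for the c subunit of the rotor ring make the same mature protein: Atp5g1 fell by 0.35 ± 0.11 (adjusted p = 0.023, a call lost with the block) and Atp5g3 by 0.29 ± 0.08 (adjusted p = 0.011), while Atp5g2 was at -0.15 ± 0.11 (adjusted p = 0.34).

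The count of calls depended on the libraries and on the fit. It was 27 (26 lower, 1 higher) with the replicate number as a block, 28 when the fit held T and WT libraries only, 16 with no filter on low counts, 19 without the choroid-rich T 4 and WT 1, 14 without T 3 and 30 without WT 5. The shares of all genes called under these alternatives are not given here. The drops thus cannot be read as particular to the members. Atp5a1, Atp5k, Ndufa9, Ndufaf4, Ndufaf5, Ndufs7, Ndufv1 and Uqcr11, 8 of the 48, kept their call under all 28 alternatives.

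Other genes of energy metabolism, from lists chosen with results of these data known, are given for the same comparison, T against WT. Of 18 citric acid cycle and pyruvate dehydrogenase genes 13 were lower and 2 higher, with a median log2 fold change of -0.38; Mdh2, which makes oxaloacetate, fell by 0.46 ± 0.09 (SE; adjusted p = 0.0012 by edgeR). Of 18 glycolytic genes 10 were lower and 1 higher, with a median of -0.39. Eno2, the neuronal enolase, fell by 0.76 ± 0.13 (adjusted p = 0.00063), and Hk2, an inducible hexokinase, rose by 1.14 ± 0.19 (adjusted p = 0.0004). Of 16 genes for cytochrome c, other carriers and coenzyme Q synthesis 7 were lower and none higher, with a median of -0.26, and Cycs, cytochrome c itself, fell by 0.33 ± 0.09 (adjusted p = 0.012). Assembly factors outside the name rule were lower in 7 of 39 cases, with a median of -0.11, and led by Ecsit, a complex I assembly factor, at -0.55 ± 0.08 (adjusted p = 0.00013).

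The 13 chain genes encoded by mitochondrial DNA had a median log2 fold change of -0.13 in T against WT, and 2 were called, both lower: mt-Nd4l at -0.39 ± 0.08 (adjusted p = 0.0029 by edgeR) and mt-Atp8 at -0.44 ± 0.11 (adjusted p = 0.0078), each of which overlaps its neighbour's coding sequence. Of 78 mitochondrial ribosomal proteins 16 were lower and 1 higher (median -0.15), of 17 genes for import and organelle dynamics 7 were lower (median -0.19), and of 16 genes for biogenesis and mitochondrial transcription 2 were lower, Nrf1 at -0.33 ± 0.10 (adjusted p = 0.027) and Ppargc1b at -0.52 ± 0.16 (adjusted p = 0.029). Cytosolic ribosomal proteins, 95 rows taken by name that include a few ribosomal kinases, had 5 higher and 6 lower and a median of 0.02.

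Cell type markers moved in the same libraries. In T against WT 4 of 16 excitatory neuron markers were lower (median -0.31), among them Gria2, an AMPA receptor subunit, at -0.93 ± 0.15 (log2, SE; adjusted p = 0.00043 by edgeR), and 2 of 12 inhibitory neuron markers were lower (median -0.17). Of 12 microglial markers 11 were higher (median 2.24), as were 5 of 10 astrocyte markers (median 0.54) and 6 of 12 oligodendrocyte markers (median 0.96). Oligodendrocyte markers were uneven within WT, with sums of 4973 and 3659 CPM in WT 1 and WT 5 and of 13688 and 16087 CPM in WT 2 and WT 4. The T libraries, at 10401 to 22735 CPM, overlapped the WT ones. WT 1 and WT 5 also had the highest member medians of the WT libraries, at 0.04 each. The part of the marker shifts in the respiratory chain values was not tested. Markers of endothelium were higher in 2 of 12 cases, those of pericytes in 1 of 12, and none of the tested choroid plexus (12), muscle (7) or erythrocyte (5) markers passed.

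The 8 tissue isoforms of complex IV replace a broadly expressed subunit in muscle, lung, testis or low oxygen, and lay far below their partners in hippocampus: their summed TPM was 57.4 to 71.1 in TCKO, 82.9 to 216 in T, 49.7 to 58.1 in CKO and 57.5 to 184 in WT libraries. Cox6a2, the heart and skeletal muscle form of subunit 6a (chr7:128205435-128206387), had 4.51, 1.93, 5.63 and 4.80 CPM in TCKO, and 19, 14.5, 11.8 and 11.0 CPM in T. In CKO it had 3.11, 4.27, 4.29 and 4.67 CPM, and in WT 10.9, 5.28, 6.44 and 11.0 CPM. All TCKO libraries lay below all T libraries, with a fold change of -1.74 ± 0.31 (log2, SE; adjusted p = 0.0012 by edgeR), against 8.05% of all genes called lower in TCKO against T. This call held under all 28 alternatives. T against WT gave 0.74 ± 0.30 (adjusted p = 0.078), CKO against WT -1.04 ± 0.31 (adjusted p = 0.31) and the interaction -0.70 ± 0.43 (adjusted p = 0.40), none of which passed.

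Cox6b2, the testis form of subunit 6b (chr7:4751792-4753094; promoter shown above), had 3.73, 4.85, 3.30 and 4.10 CPM in TCKO, 10.3, 8.03, 12.5 and 4.96 CPM in T, 3.36, 3.49, 2.60 and 2.06 CPM in CKO and 7.30, 2.67, 4.28 and 2.15 CPM in WT libraries. It was the one member that rose in T against WT, by 1.13 ± 0.34 (log2, SE; adjusted p = 0.024 by edgeR), with overlapping libraries. In TCKO against T it fell by 1.16 ± 0.34 (adjusted p = 0.034), without overlap. The rise lost its call without T 2, T 4, WT 2 or WT 5 and when only T and WT libraries were fitted, and the fall without any of T 2, T 3, T 4, TCKO 2, TCKO 4 or TCKO 5. The broadly expressed partners moved little in TCKO against T, Cox6a1 by 0.01 ± 0.08 and Cox6b1 by -0.04 ± 0.08, and did not pass.

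Cox8b, a muscle form of subunit 8 (chr7:140898945-140900446), had 14.6 CPM in T 4 and 15.7 CPM in WT 1, the choroid-rich libraries, and at most 1.11 CPM in each of the other 14. It passed in no comparison. Skeletal and cardiac muscle markers, of which 7 of 12 were tested, summed to 25.7 to 59.6 CPM in TCKO, 12.3 to 34.9 in T, 23.9 to 43.4 in CKO and 28.1 to 68.5 in WT libraries. No T library exceeded the highest WT library in these markers. Cox7a1, a heart and skeletal muscle form, averaged 1.64 ± 0.46 CPM in TCKO, 2.73 ± 1.37 in T, 1.23 ± 0.33 in CKO and 1.85 ± 0.64 in WT (SD, n = 4 each), and Cox4i2, a lung form, 2.44 ± 0.31 CPM in TCKO, 3.17 ± 0.69 in T, 2.68 ± 1.03 in CKO and 2.76 ± 0.29 in WT. Neither passed in any comparison, nor did Cox7b2, below 1 CPM on average, or Ndufa4l2, known to rise in low oxygen, which shares 32 exon bases with Shmt2.

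**Figure D3:**
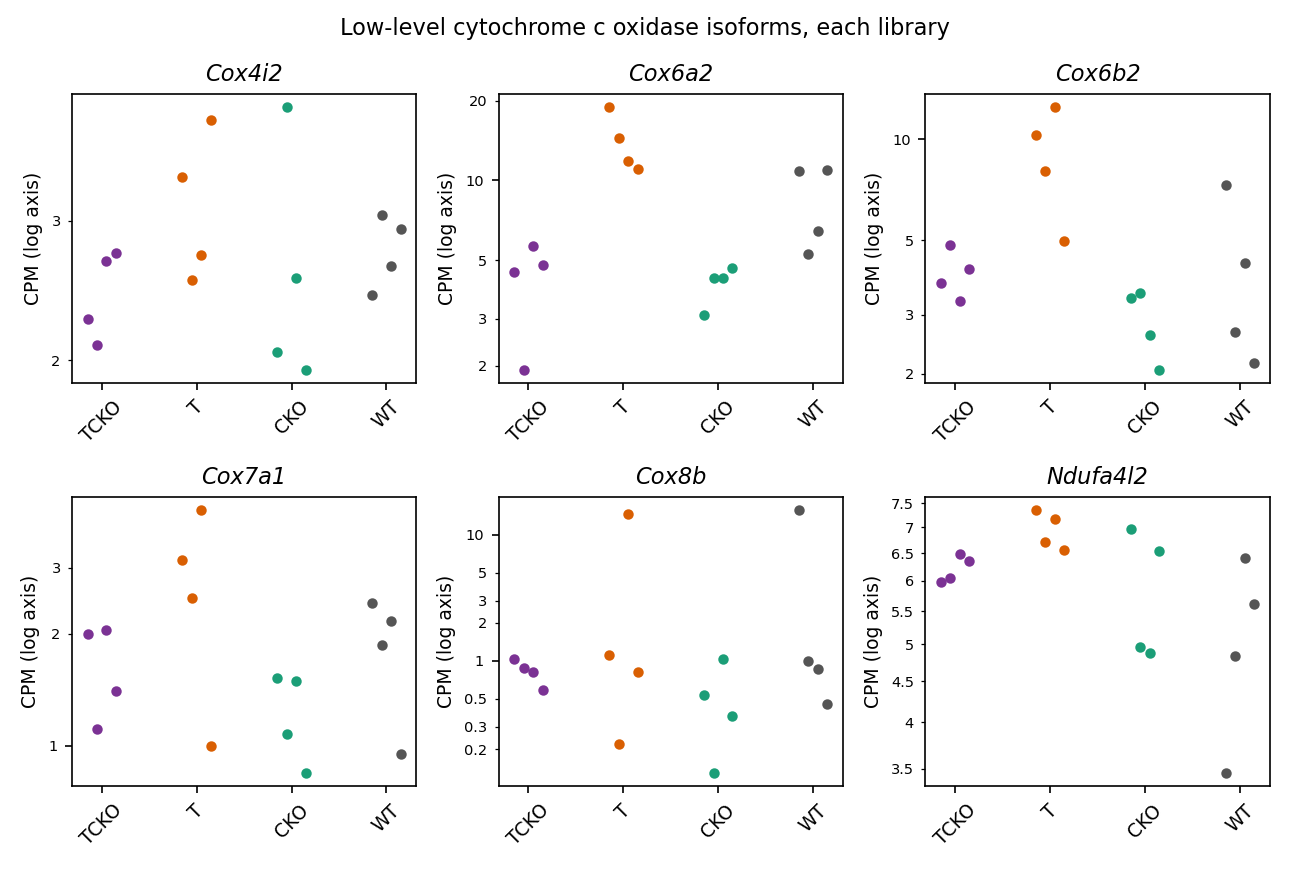
CPM on a log axis of 6 low-level complex IV isoforms in each of 4 libraries of TCKO, T, CKO and WT. Cox6a2 is at 1.93 to 5.63 CPM in TCKO against 11.0 to 19 in T, and Cox8b reaches 14.6 CPM in T 4 and 15.7 CPM in WT 1 only.

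CKO against WT asks what the knockout does on its own, and 0 of 94 members passed (edgeR), where 0.0108% of all genes did, that is 2 genes. At an unadjusted p under 0.05, 32 members were lower and 1 higher, against 5.45% and 5.86% of all genes; DESeq2 called 3 lower, against 0.296% of all genes by that tool, and limma voom none. The median over the members was -0.18, against -0.01 for all genes tested, and 89 of 94 lay below 0, as did 52.3% of all genes. Genes at 10 CPM or more were split at 493 bases as above. The 43 shorter members had a median of -0.20 and the 42 longer ones -0.16. Over all genes the split gave -0.17 for 325 genes and -0.01 for 9206. The part of length in these values was not tested. In 18 members all CKO libraries lay below all WT libraries, against 4.06% of all genes, and in 1 above, against 4.88%.

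The smallest p-values belonged to Uqcrc1, Ndufs6 and Cox4i1. Uqcrc1 had 422, 466, 403 and 484 CPM in CKO and 574, 526, 515 and 624 CPM in WT libraries, without overlap, at -0.34 ± 0.09 (log2, SE; adjusted p = 0.26 by edgeR). Ndufs6, a zinc-binding complex I subunit, had 79.1, 80.7, 91.4 and 73.6 CPM in CKO and 101, 96.7, 99.7 and 105 CPM in WT libraries, at -0.31 ± 0.08 (adjusted p = 0.26). Cox4i1 was at -0.25 ± 0.07 (adjusted p = 0.30). With library totals in place of TMM factors the median over the members was -0.12, beside 0.05 over all genes tested. In CKO against WT the mitochondrially encoded genes had a median of -0.34 and cytosolic ribosomal proteins one of -0.21, with none called.

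TCKO against T asks what the knockout changes in the presence of the transgene. Ndufv1, Atp5b and Atp5a1, 3 of 94 members, rose, where 4.81% of all genes were called higher. The falls were the isoforms Cox6a2 and Cox6b2, and 89 did not pass, where 8.05% of all genes were called lower and 12.9% were called in all. The median over all members was 0.01, against 0.02 for all genes tested, and 44 of 94 lay below 0, as did 47.6% of all genes. Atp5a1 had 976, 895, 817 and 899 CPM in TCKO, against 635 to 797 CPM in T, and rose by 0.31 ± 0.09 (log2, SE; adjusted p = 0.026 by edgeR). Atp5b had 1085, 1067, 1195 and 1258 CPM in TCKO, against 760 to 1034 CPM in T, and rose by 0.40 ± 0.11 (adjusted p = 0.023). Ndufv1 had 345, 295, 295 and 322 CPM in TCKO, against 232 to 271 CPM in T, and rose by 0.31 ± 0.08 (adjusted p = 0.013). In all 3 genes the groups did not overlap in CPM. In deposited TPM this held for Atp5a1 and Ndufv1. Atp5b overlapped there, with 974 TPM in TCKO 2 and 1015 TPM in T 5. Over all 94 members 8 had all TCKO libraries above all T libraries and 4 had them below, against 5.14% and 9.65% of all genes. At an unadjusted p under 0.05, 15 members were higher and 5 lower, against 13.9% and 14.2% of all genes. Without T 2 or without T 3 none of the 3 rises passed, and none did with no filter on low counts or with TCKO and T libraries alone. The count of members called, 5, was 2 without TCKO 5, 3 without TCKO 2 and 3 without the choroid-rich libraries. It was 4 with an offset for effective length, where Atp5b lost its call.

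By complex, the differences between TCKO and T were uneven. The median log2 fold change was 0.17 over the 7 core subunits of complex I, all above 0, 0.22 over its 8 assembly factors and 0.17 over the 5 genes of the F1 head. It was 0.01 over 30 accessory subunits, -0.01 over 11 broadly expressed complex IV genes and -0.01 over 12 genes of the membrane part and stalks of ATP synthase. These differences between classes were not tested. In the same comparison 6 of 16 excitatory neuron markers were higher (median 0.48), 10 of 12 microglial and 6 of 10 astrocyte markers were lower, and 18 of 95 cytosolic ribosomal protein rows were lower against 1 higher (median -0.20). The part of these shifts was not tested. Among energy genes Eno2 rose by 0.62 ± 0.13 (log2, SE; adjusted p = 0.0050 by edgeR), Hk2 fell by 1.34 ± 0.19 (adjusted p = 0.00021) and Ecsit rose by 0.34 ± 0.08 (adjusted p = 0.012).

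Members with long transcripts stood apart from those with short ones, a description chosen after the values were seen. Over the 85 members at 10 CPM or more, Spearman's rho between the mean effective length in the deposited files and the log2 fold change was 0.75 in TCKO against T, -0.21 in T against WT and 0.25 in CKO against WT. Over the 9531 genes tested at that level the same 3 values were 0.13, -0.10 and 0.33. The same coefficient over the members was 0.48 in TCKO against CKO, 0.56 in TCKO against WT and 0.58 in the interaction, beside -0.27, 0.01 and -0.07 over all genes. These comparisons share libraries with one another. In TCKO against T the 43 members of up to 493 bases had a median of -0.06 and the 42 longer ones 0.12; over all genes the same split gave -0.13 for 325 genes and 0.10 for 9206. The points share their libraries, and length goes with position in the complexes, since the long members include Sdha (2542 bases), Ndufs1, Atp5a1, Uqcrc1 and Ndufv1 and the short ones Ndufc1 (198 bases), Atp5md, Atp5k and Uqcr11.

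The same contrast stood in single libraries. The median of the longer members minus that of the shorter ones, relative to WT on the log2(CPM + 0.5) scale, was 0.23, 0.13, 0.04 and 0.23 in TCKO libraries, -0.11, -0.01, -0.06 and 0.02 in T libraries, 0.04, 0.10, -0.08 and 0.10 in CKO libraries, and -0.01, 0.01, 0.00 and 0.02 in WT libraries. All TCKO libraries lay above all T libraries, with TCKO 4 close to T 5. With an offset for effective length rho in TCKO against T was 0.71, and it was 0.69 to 0.78 with each library left out in turn. RNA integrity values were not used here, and the part of RNA quality in the relation was not tested.

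**Figure D4:**
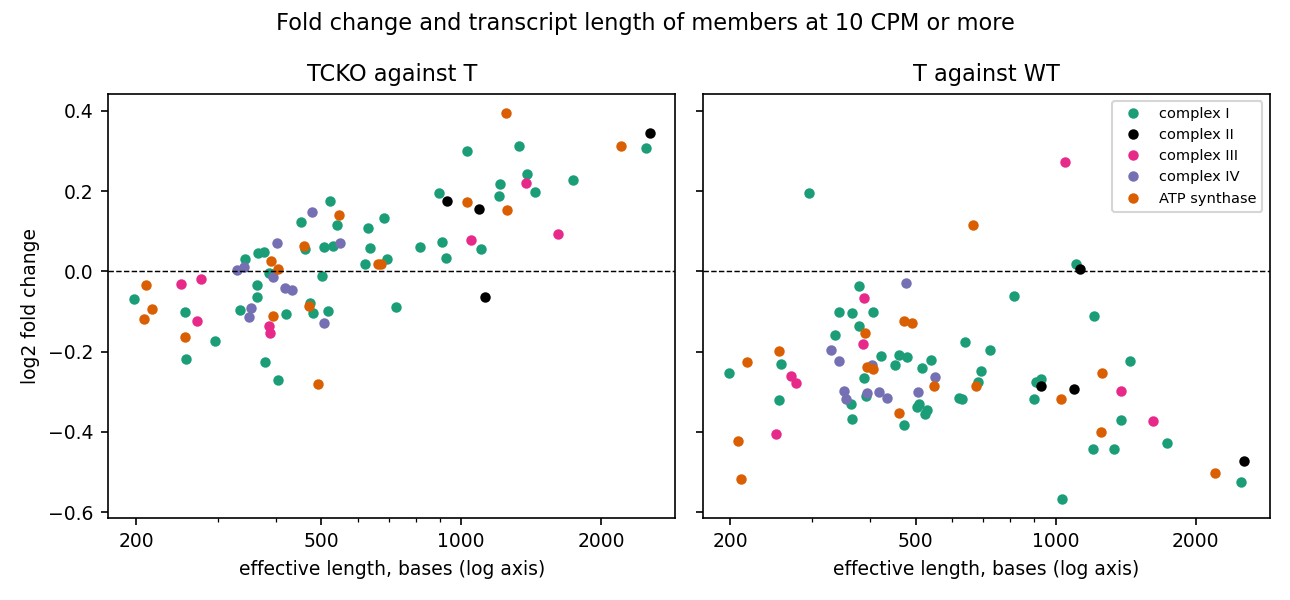
Log2 fold change of members at 10 CPM or more against mean effective length in bases (log axis), for TCKO against T and for T against WT; each point is a gene, coloured by complex, with assembly factors under complex I and Cox7a2l not drawn. In TCKO against T the values climb with length (rho 0.75), and in T against WT they do not (rho -0.21).

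The interaction asks whether the effect of the transgene differs with Ch25h genotype. Computed as TCKO minus CKO less T minus WT, it passed in 4 members, all positive, where 3.15% of all genes were called, 0.695% positive and 2.45% negative (edgeR). At an unadjusted p under 0.05, 25 members were positive and 0 negative, against 8.72% and 10.1% of all genes. The median over the members was 0.19, against 0.03 for all genes tested, and 11 of 94 lay below 0, as did 47.7% of all genes. Atp5b stood at 0.68 ± 0.15 (log2, SE; adjusted p = 0.023), Atp5a1 at 0.57 ± 0.12 (adjusted p = 0.020), Uqcrc1 at 0.55 ± 0.12 (adjusted p = 0.021) and Ndufv1 at 0.48 ± 0.11 (adjusted p = 0.024). All 4 are among the longer members. The interaction climbed with length over the members (rho 0.58), with a median of 0.28 in the longer and 0.14 in the shorter ones. Over all genes at 10 CPM or more the same split gave 0.09 and 0.03. With an offset for effective length 3 of the 4 calls held, and Atp5b lost its call. The part of length in these calls was not tested.

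The CKO values show what the interaction is made of. Atp5a1 had 834, 881, 847 and 874 CPM in CKO libraries, below all WT libraries at 945 to 1091 CPM, and TCKO libraries at 817 to 976 CPM lay around the CKO ones. Atp5b had 927, 949, 836 and 1085 CPM in CKO, below all WT libraries at 1122 to 1244 CPM, while TCKO, at 1067 to 1258 CPM, spanned them. Uqcrc1 had 557, 525, 499 and 540 CPM in TCKO and 403 to 484 CPM in CKO, without overlap, and 426 to 491 CPM in T against 515 to 624 CPM in WT. Ndufv1 had 304, 306, 305 and 313 CPM in CKO, against 330 to 357 CPM in WT. In CPM the single genotypes, T and CKO, thus lay below WT in these 4 genes, and TCKO did not lie below either of them on average. The CKO part was not the same in deposited TPM. There Ndufv1 had 323, 314, 313 and 338 in CKO, 332, 320, 304 and 333 in WT, and 337, 296, 298 and 315 in TCKO libraries. Atp5b had 1090, 1005, 1111 and 1172 TPM in CKO and 1152, 1170, 1118 and 1292 in WT. Atp5a1 had 529, 552, 520 and 563 TPM in CKO and 610, 597, 519 and 623 in WT. Uqcrc1 had 431, 468, 404 and 495 TPM in CKO and 531, 483, 457 and 571 in WT. In all 4 genes CKO and WT overlapped in TPM. Uqcrc1 in TCKO, at 485 to 532 TPM, also overlapped CKO. None of the 4 kept its call under all 27 alternatives: the count was 0 without CKO 1, CKO 4 or T 3, 1 without T 2 or WT 5, 2 without TCKO 5, 1 without the choroid-rich libraries and 1 with no filter on low counts.

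**Figure D5:**
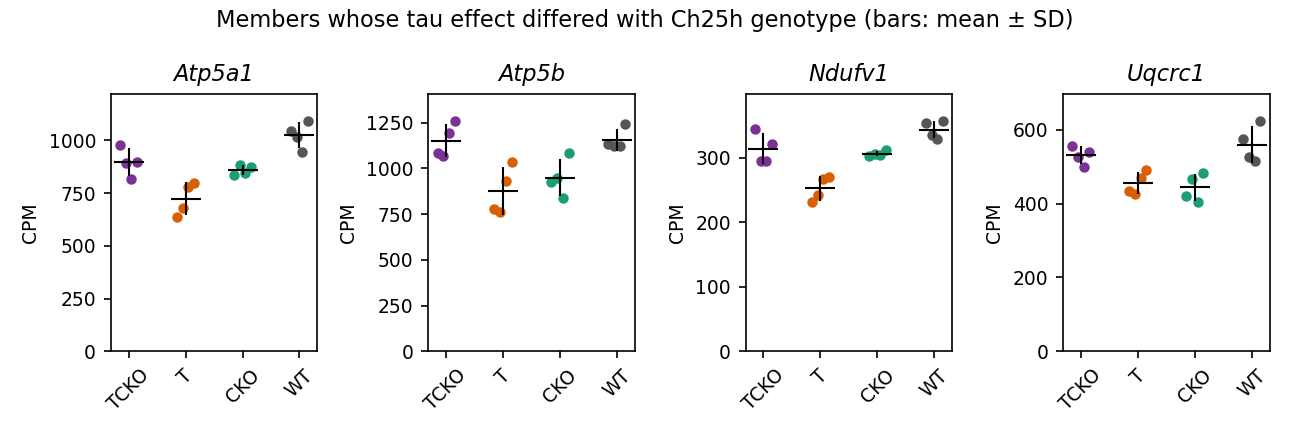
CPM of Atp5a1, Atp5b, Ndufv1 and Uqcrc1 in each library of TCKO, T, CKO and WT; points are libraries and bars the mean ± SD of 4. TCKO means (897, 1151, 314 and 530 CPM in that gene order) lie above T means (723, 876, 253 and 456 CPM), and WT means (1024, 1156, 344 and 560 CPM) are the highest.

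TCKO against CKO asks what the transgene does when Ch25h is absent, and 0 of 94 members passed (edgeR), where 0.539% of all genes did, 0.189% lower and 0.35% higher; at an unadjusted p under 0.05, 6 were lower and 5 higher, against 7.03% and 10.4% of all genes, and neither DESeq2 nor limma voom called any. The median was -0.06, against 0.01 for all genes tested, and 66 of 94 lay below 0, as did 48.3% of all genes. In 4 members all TCKO libraries lay below all CKO libraries and in 2 above, against 4.93% and 5.32% of all genes. The smallest p-values were those of Atp5md at -0.33 ± 0.11 (log2, SE; adjusted p = 0.14), Uqcrc1 at 0.26 ± 0.09 (adjusted p = 0.15) and the assembly factor Ndufaf2 at -0.35 ± 0.12 (adjusted p = 0.15). Atp5md had 160, 153, 167 and 166 CPM in TCKO and 195, 186, 257 and 177 CPM in CKO libraries, without overlap.

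TCKO against WT, a comparison added after the values were seen, called 1 member, Atp5k, where 0.302% of all genes were called, 0.119% lower and 0.183% higher (edgeR). Atp5k had 93.8, 85.8, 106 and 95.3 CPM in TCKO, against 124 to 155 CPM in WT, at -0.55 ± 0.11 (log2, SE; adjusted p = 0.049), a call lost in 23 of 28 alternatives. The median over the members was -0.22, against 0.02 for all genes tested, and 85 of 94 lay below 0, as did 47.7% of all genes. At 10 CPM or more, the 43 members of up to 493 bases had a median of -0.32 and the 42 longer ones -0.14. Over all genes the same split gave -0.19 for 325 genes and 0.00 for 9206. The part of length in these values was not tested. In 51 members all TCKO libraries lay below all WT libraries and in 0 above, against 4.33% and 3.14% of all genes. At an unadjusted p under 0.05, 54 members were lower and 0 higher, against 6.65% and 8.53% of all genes, and DESeq2 called 20 lower, against 1.06% of all genes by that tool. In 33 members both T and TCKO lay wholly below WT, against 2.12% of all genes, and in 8 T lay wholly below WT and TCKO wholly above T, against 2.91%; the comparisons share the WT or T libraries. Of the 13 mitochondrially encoded genes, mt-Nd4l at -0.62 ± 0.08 (adjusted p = 0.0043 by edgeR) and mt-Atp8 at -0.77 ± 0.11 (adjusted p = 0.0065) were called lower in TCKO against WT. In the same comparison all 12 microglial markers lay above 0 (median 0.68, 2 called higher), as did all 12 oligodendrocyte markers (median 0.71, none called). Of 16 excitatory neuron markers 12 lay above 0 (median 0.15, none called), and all 12 choroid plexus markers lay below 0 (median -1.80, none called). Oligodendrocyte markers summed to 3659 to 16087 CPM in WT and 13773 to 18236 in TCKO libraries, with overlap. Choroid plexus markers summed to 11569 CPM in WT 1, 160 to 593 in WT 2, 4 and 5, and 438 to 1193 in TCKO. In that sum only WT 1 lay above the TCKO libraries. The part of the marker shifts in the member values was not tested.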

How the data were processed

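RNA was amplified from oligo-dT primers with a low-input kit, per the labels' protocols. The submitters' processing notes name bcl2fastq, STAR 2.5.1a, Subread, featureCounts 1.4.6-p5 and GRCm38 without roles, and the annotation and the quantifier of the fractional counts are not stated there. Estimated counts per gene (reads, as deposited by the authors) were rounded to whole numbers for tests. TPM, as deposited by the authors and named in the file headers, were used for levels between genes.

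Genes were filtered with filterByExpr, scaled by TMM and fitted with edgeR 4.0.16 (quasi-likelihood, 1 mean per genotype over 16 libraries, R 4.3.3). Adjusted p-values are Benjamini-Hochberg over the 18565 genes tested, called under 0.05, and SE is the fold change over the root of F. Totals ran from 15064309 to 34348284 reads. The members and all lists were chosen with earlier results of these data known. Named were complex II, isoform pairs, the most abundant member of each class, up to 8 called members per direction and comparison by p (else the 3 smallest p), and up to 3 called genes of each other list. Alternatives were DESeq2 1.42.0, limma 3.58.1 voom, other scalings, no filter, thinning, a length offset and left-out libraries. Same-numbered WT and T libraries deviated together in all 3 shared numbers (correlation 0.12, 0.14 and 0.30). The count with the replicate number as a block thus stands beside the T against WT result. CKO and T libraries did so too (0.10, 0.14 and 0.14). WT and CKO libraries had -0.05, 0.02, 0.17 and 0.27 in numbers 1, 2, 4 and 5. Correlations of TCKO with the other groups ran from -0.14 to 0.17. The test was tried on simulated counts with rises in T only and no structure among libraries beyond their totals. Its outcome is not given here, so no support is drawn from it.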

Additional observations from a re-analysis of the deposited data

Results flagged for a closer look

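Among 216 groups of 4 libraries examined, 8 had 1 library far from the other 3, by a gap above Dixon's critical value, where chance gives about 1 in 20. Atp5b was high in WT 5, at 1243.52 CPM against 1122 to 1135 CPM in the other WT libraries. Cox8b was high in WT 1, at 15.7 CPM against 0.459 to 1.01 CPM. Ndufaf4 was low in T 2, at 36.9 CPM against 42.3 to 43.3 CPM in the other T libraries.

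In summed TPM, the membrane part and stalks of ATP synthase were high in T 4 (8062 against 7570.2 to 7630), complex I assembly factors high in T 5 (427 against 412 to 413), complex I core subunits low in TCKO 3 (2164 against 2333 to 2343), and complex IV tissue isoforms high in WT 1 (184 against 57.5 to 67.6). Cox5b-ps was high in TCKO 4, at 11.6 TPM against 6.28 to 7.17. WT 1 and T 4 are the libraries rich in choroid plexus markers; the part of that in these values was not tested.

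The effect of the tau transgene differed between Ch25h genotypes in 4 members by the test of the interaction (log2, edgeR): Atp5a1 by 0.57, Atp5b by 0.68, Ndufv1 by 0.48 and Uqcrc1 by 0.55.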

How the results depend on the processing

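In T against WT 48 members were called, against 16 with no filter on low counts, 28 with only T and WT libraries, 27 with the replicate block and 19 without the choroid-rich libraries, and 14 (without T 3) to 49 (without T 4) with single libraries left out. CKO against WT had 0, also with each library left out, and 3 with DESeq2. TCKO against CKO had 0 throughout. TCKO against T had 5, against 2 with no filter, 2 with only TCKO and T libraries, 3 without the choroid-rich libraries, and 1 (without T 2) to 7 (without CKO 4 or T 5). The interaction had 4, against 1 with no filter, 1 without the choroid-rich libraries, and 0 (without CKO 1, CKO 4 or T 3) to 5 (without T 5). TCKO against WT had 1, against 0 with RLE, library totals, limma voom, only the libraries compared, the replicate block, thinning, and without choroid-rich libraries or mitochondrially encoded genes. It had 2 with upper-quartile scaling or no filter, 20 with DESeq2, and 0 to 3 (without CKO 4) with single libraries left out. Apart from the DESeq2 shares given above, the shares of all genes called under each alternative are not given here. These changes in count thus cannot be read as particular to the members. The causes were not tested.

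Member medians stayed between -0.30 and -0.19 in T against WT, -0.23 and -0.12 in CKO against WT, -0.24 and -0.18 in TCKO against WT, and 0.12 and 0.23 in the interaction, over all alternatives. The block moved no other count by over 1.5 times except TCKO against WT. The 9 tested members under 10 CPM had the fewest reads.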
